A study of Mus musculus with 19 samples.

Results

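The nucleic acid sensors of innate immunity are proteins that bind viral or misplaced cellular RNA and DNA, and the adaptors that carry their signal. The 10 genes described here are *Ddx58*, *Ifih1*, *Dhx58*, *Mavs*, *Tmem173*, *Eif2ak2*, *Zbp1*, *Adar*, *Tlr3* and *Tlr7*. They were taken by their GENCODE M21 name from a table of 41128 genes, each name matched 1 Ensembl identifier, and all 10 passed the filter on low counts. RNA of 3 brain regions, the cerebellum, the striatum and the prefrontal cortex, was sequenced from C57BL/6 mice aged 3 months. KI mice carry the SCA17 knock-in (Tbp-105Q), a *Tbp* gene with an expanded glutamine-coding repeat, and age-matched WT mice have no such allele. By the study's methods the line was made from a floxed allele with EIIa-Cre, which acts in the early embryo, and then bred to WT mice, so the allele is in the germline and in every cell type. No treatment is listed. There were 3 WT and 4 KI libraries of the cerebellum, and 3 of each genotype of the striatum and of the prefrontal cortex, or 19 in all. The question was which of the sensor genes differed between KI and WT mice in each region, and whether the regions differed in this.

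Sensors of this kind fall into a few classes. RIG-I (*Ddx58*), MDA5 (*Ifih1*) and LGP2 (*Dhx58*) are cytoplasmic RNA helicases, and the former pair signal through MAVS on mitochondria, while LGP2 lacks the signalling domains and modulates both. PKR (*Eif2ak2*) is a kinase that is activated by double-stranded RNA and slows translation, ZBP1 binds Z-form nucleic acid and can start necroptosis, and ADAR edits adenosine in double-stranded RNA, which keeps cellular RNA from being sensed. TLR3 and TLR7 detect double-stranded and single-stranded RNA in endosomes, and STING (*Tmem173*) relays the signal of the cytosolic DNA sensor cGAS. Several of these genes are themselves induced by type I interferon through the interferon-stimulated response element (ISRE). In the brain, *Tlr7* is known above all from microglia.

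Promoter sequences of some members are shown as a description, and their part in the differences of level below was not tested. RefSeq promoter windows on GRCm38.p6, from 250 bases before to 50 bases after a start, were searched for 6 of the members in 8 windows. *Dhx58*, *Zbp1* and *Tlr7* had no entry, and *Tmem173* was not part of this search. The ISRE core was searched as GAAANNGAAA or its reverse complement TTTCNNTTTC. In the lines below, capitals mark a match and the lower-case letters are the surrounding sequence.
*Ddx58*, chr4:40239814-40239913, minus strand: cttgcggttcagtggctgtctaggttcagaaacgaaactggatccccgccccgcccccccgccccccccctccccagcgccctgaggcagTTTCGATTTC
*Eif2ak2*, chr17:78882545-78882644, minus strand: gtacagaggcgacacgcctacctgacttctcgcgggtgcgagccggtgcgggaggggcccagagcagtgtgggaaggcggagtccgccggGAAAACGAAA
*Ifih1*, chr2:62646206-62646235, minus strand: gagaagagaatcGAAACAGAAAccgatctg
*Mavs*, chr2:131233963-131234062, plus strand: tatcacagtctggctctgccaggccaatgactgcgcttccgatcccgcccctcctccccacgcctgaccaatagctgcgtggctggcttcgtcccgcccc
*Tlr3*, chr8:45410381-45410480, minus strand: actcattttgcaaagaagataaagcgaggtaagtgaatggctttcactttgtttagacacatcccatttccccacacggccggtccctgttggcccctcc

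The ISRE core lay just after the start in *Ddx58* (positions 3 to 12), *Eif2ak2* (19 to 28) and *Ifih1* (33 to 42), counted from 1 at the first transcribed base. It was found in 3.43% of all 32817 windows of this length (1126 windows). The windows of *Mavs* and *Tlr3*, of which the 100 bases before the start are shown, and the 3 windows of *Adar* did not hold it. The search allowed no mismatch. In *Adar* 1 of the windows, which is not shown, holds gaaagtgaac, and the window of *Tlr3* holds tttcactttg. Each of these misses the core by 1 letter, and such near matches were not counted over all windows. A match is a description of the letters and not a measured binding site, and the matches found in *Ddx58*, *Eif2ak2* and *Ifih1* are set beside their levels below.

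Of the 10 genes, 4 rose in the KI cerebellum, 4 rose in the KI striatum, none passed the test in the KI prefrontal cortex and none fell. *Ddx58*, *Ifih1* and *Eif2ak2* rose in both the cerebellum and the striatum. *Tlr7* rose in the cerebellum, and *Dhx58* rose in the striatum. Over all 16841 genes tested, the share called higher in KI was 0.517%, 0.392% and 0.0891% in the cerebellum, striatum and prefrontal cortex. For the 10 genes the median log2 fold change in these regions was 1.04, 0.76 and 0.49, and for all genes it was 0.01, -0.01 and 0.00. Calls are from the edgeR quasi-likelihood test at a Benjamini-Hochberg adjusted p under 0.05 over all genes tested. Where edgeR called 0 members, in the prefrontal cortex, 6 had an unadjusted p under 0.05, against 998 of all 16841 genes. DESeq2 called 2 members there, *Ddx58* and *Dhx58*, against 52 of all genes.

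**Figure D1:**
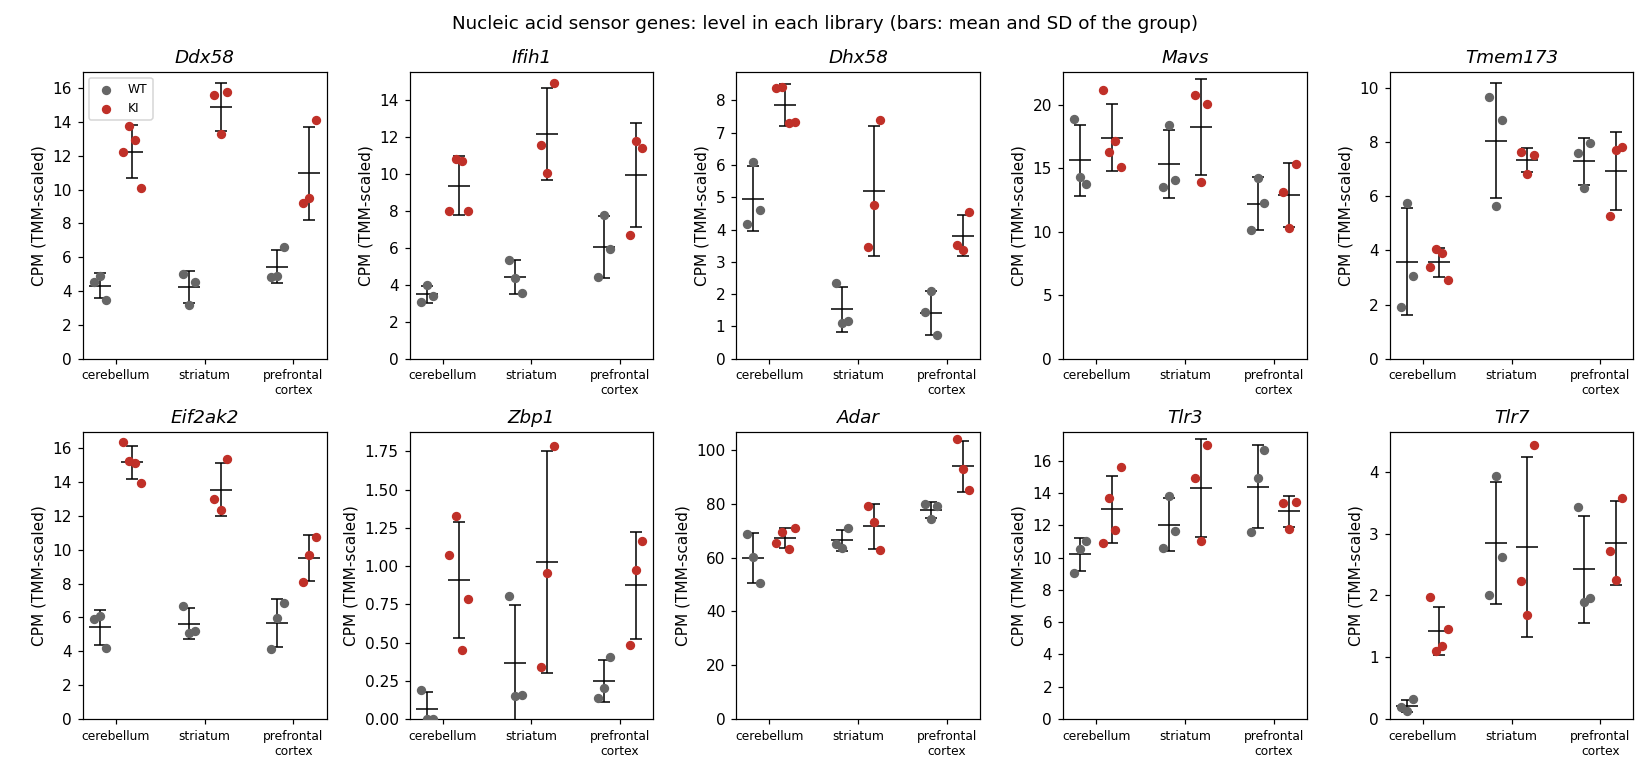
Level of each of the 10 genes in each library, as CPM (counts scaled to an equal library size by TMM), on linear axes that start at 0. Points are libraries (grey, WT; red, KI), and bars give the mean and SD of each group; the KI points of *Ddx58* and *Eif2ak2* lie above the WT points in each of the 3 regions, while those of *Mavs* and *Tmem173* mix with them.

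Library totals ran from 10639110 to 17431284 counts, with a median of 15082703. *Tbp* itself was counted at 32.0 to 56.6 CPM in KI and 33.4 to 62.0 CPM in WT libraries, which cannot check the labels because gene counts do not show the repeat. Summed markers matched the labelled regions. A set of 9 cerebellar genes reached 4805 to 6543 CPM in the cerebellum and at most 584 CPM elsewhere. For 9 striatal genes the sum was 5568 to 11945 CPM in the striatum and at most 1177 CPM elsewhere. For 8 cortical genes it was 1312 to 2067 CPM in the prefrontal cortex and at most 674 CPM elsewhere. Within the prefrontal cortex, striatal markers ran from 236 to 1177 CPM and oligodendrocyte markers from 3638 to 12562 CPM. Markers of neighbouring structures were high in some libraries. Choroid plexus markers summed to 4854 CPM in the third KI and 1935 CPM in the first WT cerebellum library against 12.5 to 24.6 CPM in the other 5, and to 1525 to 8830 CPM in all striatum libraries. Olfactory bulb markers summed to 439 CPM in the third WT library of the prefrontal cortex and to 7.74 to 37.2 CPM in the other 5. Leaving out any 1 of these 3 libraries left 4, 4 and 0 members called in the 3 regions. Within a region the markers also differed with the genotype. The 9 cerebellar genes summed to 5801 to 6543 CPM in the WT and 4805 to 5193 CPM in the KI cerebellum, which do not overlap, and 1 of them, the Purkinje cell gene *Pcp2*, was called lower in KI (log2 fold change -1.16, SE 0.14, adjusted p = 1.96e-04, edgeR). *Aldoc*, which astrocytes and some Purkinje cells express, was the 1 gene called of the 10 astrocyte markers there (-0.62, SE 0.11, adjusted p = 0.00912). Striatal markers summed to 5568 to 7954 CPM in the KI and 10305 to 11945 CPM in the WT striatum, again without overlap. The part of these differences in the cerebellar and striatal values below was not tested. Counts from Xist and Y-linked genes put both sexes in every group, at 1 or 2 animals of each. In the striatum and the prefrontal cortex each KI group had 1 female and 2 males. Each WT group there had 2 females and 1 male, so sex was partly confounded with genotype in these regions.

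*Ddx58* (ENSMUSG00000040296, chr4:40203773-40239828, minus strand) encodes RIG-I, which senses RNA with a triphosphate end. In the cerebellum it was at 4.56, 4.91 and 3.48 CPM in WT and at 12.2, 13.7, 12.9 and 10.1 CPM in KI libraries. In the striatum the WT libraries had 5.01, 3.20 and 4.56 CPM and the KI libraries 15.6, 13.3 and 15.8 CPM. Prefrontal WT libraries had 4.86, 4.89 and 6.60 CPM and prefrontal KI libraries 9.21, 9.52 and 14.1 CPM. In every region each KI library exceeded each WT library of that region. The mean went from 4.32 ± 0.75 (SD, n = 3) to 12.2 ± 1.57 CPM (n = 4) in the cerebellum, a log2 fold change of 1.50 (SE 0.20, adjusted p = 6.44e-04, edgeR). The log2 fold change was 1.80 for the striatum (SE 0.22, adjusted p = 3.88e-04) and 1.00 in the prefrontal cortex (SE 0.21, adjusted p = 0.118), the last of which did not pass with edgeR and passed with DESeq2 (adjusted p = 0.00454). Leaving out single libraries kept the cerebellar and striatal calls.

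*Ifih1* (ENSMUSG00000026896, chr2:62595798-62646255, minus strand) encodes MDA5, which senses long double-stranded RNA. Cerebellum libraries had 3.08, 4.00 and 3.40 CPM in WT and 7.99, 10.8, 10.7 and 7.98 CPM in KI mice. Striatum libraries had 5.34, 4.38 and 3.55 CPM in WT and 11.6, 10.0 and 14.9 CPM in KI mice. Both regions separated the genotypes without overlap. The prefrontal cortex did not, with 4.45, 7.80 and 5.93 CPM in WT against 6.73, 11.8 and 11.4 CPM in KI mice. The log2 fold change was 1.42 in the cerebellum (SE 0.25, adjusted p = 0.00648) and 1.46 in the striatum (SE 0.26, adjusted p = 0.0127), both called by edgeR, and 0.71 in the prefrontal cortex (SE 0.25, adjusted p = 0.661), which was not. The striatal call is the less firm of the pair: it was lost when the striatum was fitted alone (adjusted p = 0.0580) and without the third KI, the second WT or the third WT library of the striatum (0.0966, 0.0804 and 0.0737), while the log2 fold change stayed between 1.28 and 1.62.

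*Dhx58* (ENSMUSG00000017830, chr11:100694884-100704271, minus strand) encodes LGP2, which binds RNA ends and modulates the other helicases of its family. Its striatal level was 2.34, 1.11 and 1.16 CPM in WT and 3.45, 4.76 and 7.40 CPM in KI libraries. Prefrontal levels were 1.44, 2.10 and 0.741 CPM in WT and 3.51, 3.37 and 4.55 CPM in KI libraries. In the cerebellum it was 4.18, 6.09 and 4.61 CPM in WT and 8.39, 8.43, 7.28 and 7.31 CPM in KI libraries. KI libraries were above WT libraries without overlap in all 3 regions, and the WT cerebellum started from the highest level. The log2 fold change was 1.74 in the striatum (SE 0.36, adjusted p = 0.0317, edgeR), 1.41 in the prefrontal cortex (SE 0.36, adjusted p = 0.355) and 0.66 in the cerebellum (SE 0.31, adjusted p = 0.484), so only the striatal difference passed. That call was lost with the striatum fitted alone (adjusted p = 0.186) and without the third KI, the second WT or the third WT library of the striatum (0.215, 0.201 and 0.122), and when replicate numbers were blocked within regions (0.186) or across them (0.0767). The gene shares 141 exon bases with an opposite-strand transcript, *Dhx58os*, which received 146 counts over the 19 libraries.

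*Eif2ak2* (ENSMUSG00000024079, chr17:78852564-78882573, minus strand) encodes PKR. Cerebellum libraries had 5.91, 6.09 and 4.21 CPM in WT and 16.3, 15.2, 15.1 and 13.9 CPM in KI mice. Striatum libraries had 6.68, 5.05 and 5.18 CPM in WT and 13.0, 12.3 and 15.3 CPM in KI mice. Prefrontal cortex libraries had 4.11, 5.97 and 6.87 CPM in WT and 8.06, 9.67 and 10.7 CPM in KI mice. As for *Ddx58*, no KI library overlapped the WT libraries of its region. The log2 fold change was 1.48 in the cerebellum (SE 0.19, adjusted p = 3.33e-04), 1.26 in the striatum (SE 0.19, adjusted p = 0.00376) and 0.74 in the prefrontal cortex (SE 0.20, adjusted p = 0.399), with calls by edgeR in the cerebellum and the striatum. Both calls held without any single library. An opposite-strand RNA, *Gm26637*, shares 174 exon bases with the gene and received 92 counts in all.

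*Zbp1* (ENSMUSG00000027514, chr2:173206612-173218923, minus strand), the sensor of Z-form nucleic acid, was the least abundant member. In the cerebellum it had 3, 0 and 0 counts in the WT libraries and 19, 24, 8 and 13 counts in the KI libraries. In the striatum it had 12, 2 and 2 counts in WT and 5, 13 and 27 counts in KI libraries. In the prefrontal cortex it had 2, 3 and 6 counts in WT and 8, 13 and 12 counts in KI libraries. KI libraries were above WT libraries in the cerebellum and the prefrontal cortex and overlapped them in the striatum. The summed counts per effective library gave a KI to WT ratio of 13.1 in the cerebellum, with an exact 95% interval from 4.29 to 65.3 that covers counting error only. The ratio was 2.67 (1.48 to 5.06) in the striatum and 3.30 (1.63 to 7.23) in the prefrontal cortex. The ratios of the cerebellum and the striatum rest on single libraries. The prefrontal log2 fold change of 1.75 stayed between 1.47 and 2.27 with any 1 library of that region left out. The 3 counts of the WT cerebellum all came from its first library, and without it the WT level was 0 and the fitted log2 fold change moved from 3.57 to 6.77, a value that is no bound. In the striatum the log2 fold change moved from 1.42 to 0.75 without the third KI library and to 2.70 without the first WT library. With edgeR no region passed (adjusted p = 0.0982, 0.669 and 0.837). In the cerebellum the call depended on the method, since DESeq2 (adjusted p = 0.0355) and limma on the normalized values (0.0244) passed it.

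*Adar* (ENSMUSG00000027951, chr3:89715022-89753446, plus strand), the RNA-editing deaminase, was the most abundant member and passed in no region. The cerebellum had 69.0, 60.4 and 50.5 CPM in WT and 65.4, 69.6, 63.3 and 71.0 CPM in KI libraries. The striatum had 65.0, 63.6 and 70.8 CPM in WT and 79.1, 73.3 and 62.7 CPM in KI libraries. In the prefrontal cortex WT libraries had 79.9, 74.5 and 79.1 CPM and KI libraries 104, 92.9 and 85.0 CPM, the single region in which the genotypes did not overlap. The log2 fold changes were 0.17 (SE 0.10), 0.11 (SE 0.11) and 0.27 (SE 0.11), with adjusted p of 0.641, 0.885 and 0.751 from edgeR. The interferon-inducible long form and the constitutive short form of ADAR come from different promoters, and counts per gene do not separate them. *Adar* also shares 1365 exon bases with the opposite-strand receptor gene *Chrnb2* (12507 counts over the 19 libraries), and the strand setting of the counting is not given in the sources used here.

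*Tlr7* (ENSMUSG00000044583, chrX:167304929-167330558, minus strand) had 3, 2 and 4 counts in the WT cerebellum and 35, 20, 21 and 24 counts in the KI cerebellum. These are 0.193, 0.131 and 0.324 CPM against 1.97, 1.11, 1.18 and 1.45 CPM, with no overlap. The KI to WT ratio of the summed counts was 6.84 (exact 95% interval 3.46 to 15.4, counting error only), and edgeR gave an adjusted p of 0.00871. The call was lost without the second WT library of the cerebellum (adjusted p = 0.0854) and with the replicate number as a block (0.0643). The gene is on the X chromosome. The female KI libraries of the cerebellum had 1.97 and 1.18 CPM against 1.11 and 1.45 CPM in the male ones, so the sexes overlapped in this group. In the striatum *Tlr7* was at 2.00, 3.94 and 2.63 CPM in WT and 2.23, 1.69 and 4.43 CPM in KI libraries. In the prefrontal cortex it was at 3.42, 1.90 and 1.95 CPM in WT and 2.73, 2.25 and 3.58 CPM in KI libraries. The genotypes overlapped in both regions, with log2 fold changes of -0.03 (SE 0.38) and 0.23 (SE 0.38). By sex, the female striatum libraries had 2.63 to 4.43 CPM and the male ones 1.69 to 2.23 CPM, without overlap. In the prefrontal cortex the sexes overlapped. The sign of the striatal log2 fold change turned with the covariate for sex.

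Markers of microglia moved with *Tlr7* in the cerebellum. Of the 12 microglia genes, all tested and none at 0, 9 were called higher in the KI cerebellum, among them *C1qa* (log2 fold change 1.28, SE 0.14, adjusted p = 1.39e-04) and *Csf1r* (0.71, SE 0.13, adjusted p = 0.0129). Their sum was 168 to 171 CPM in the WT and 249 to 337 CPM in the KI cerebellum, against 780 to 906 CPM in the striatum and 653 to 778 CPM in the prefrontal cortex, where edgeR called none of the 12 (2 and 1 had an unadjusted p under 0.05, and DESeq2 called none). Per 1000 CPM of microglia markers, *Tlr7* was at 0.779 to 1.89 CPM in the WT cerebellum and 4.03 to 5.85 CPM in the KI cerebellum, which do not overlap. The same quantity was 2.24 to 5.05 CPM in the WT and 2.12 to 4.89 CPM in the KI striatum, and 2.63 to 4.40 and 3.44 to 4.61 CPM in the WT and KI prefrontal cortex. In these bulk libraries more cells of a type and more RNA per cell cannot be told apart. Markers of border macrophages summed to 10.8 to 14.2 CPM in the WT and 12.0 to 32.2 CPM in the KI cerebellum, and none of the 6 was called.

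**Figure D2:**
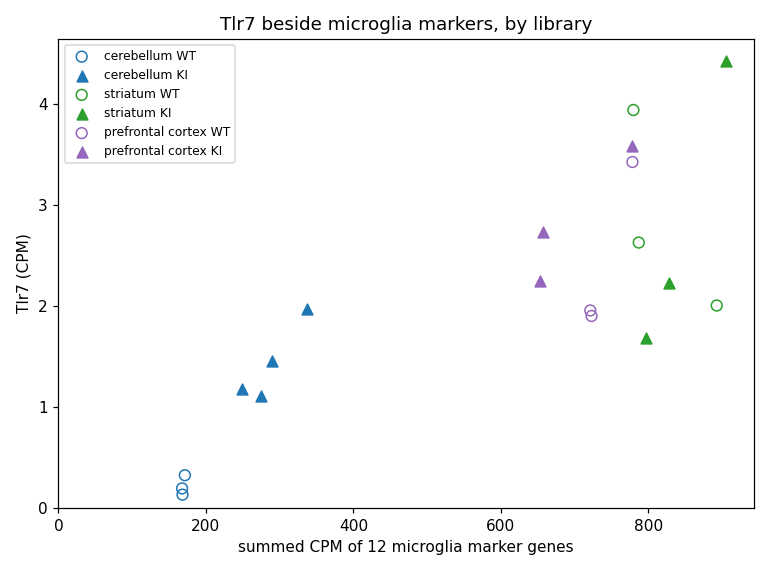
*Tlr7* (CPM, vertical axis) against the summed CPM of 12 microglia marker genes (horizontal axis) in the 19 libraries, coloured by region, with open circles for WT and filled triangles for KI. The 3 WT cerebellum libraries sit lowest on both axes, at 168 to 171 CPM of markers, and the 4 KI cerebellum libraries stand apart from them at 249 to 337 CPM.

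*Tlr3* (ENSMUSG00000031639, chr8:45395665-45411080, minus strand), the endosomal sensor of double-stranded RNA, passed in no region. It was at 9.06, 10.5 and 11.0 CPM in the WT and 10.9, 13.7, 11.7 and 15.6 CPM in the KI cerebellum. In the striatum it was at 10.6, 13.8 and 11.7 CPM in WT and 14.9, 11.0 and 17.0 CPM in KI libraries, and in the prefrontal cortex at 11.6, 14.9 and 16.6 CPM and 13.4, 11.8 and 13.5 CPM. The genotypes overlapped everywhere, and the log2 fold changes were 0.35 (SE 0.17), 0.25 (SE 0.18) and -0.16 (SE 0.18), with adjusted p from edgeR of 0.519, 0.798 and 0.969.

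Neither adaptor passed in any region. *Mavs* (ENSMUSG00000037523, chr2:131234063-131248025, plus strand) was at 13.7 to 18.8 CPM in the WT and 15.1 to 21.1 CPM in the KI cerebellum, at 13.5 to 18.4 and 13.9 to 20.7 CPM in the striatum, and at 10.1 to 14.2 and 10.3 to 15.3 CPM in the prefrontal cortex. Its log2 fold changes were 0.15 (SE 0.19), 0.25 (SE 0.20) and 0.07 (SE 0.20). *Tmem173* (ENSMUSG00000024349, chromosome 18), which encodes STING, was at 1.93, 5.77 and 3.07 CPM in the WT cerebellum, a wider spread than the 2.90 to 4.05 CPM of the KI cerebellum. It was at 5.65 to 9.68 and 6.82 to 7.64 CPM in the WT and KI striatum, and at 6.31 to 7.95 and 5.27 to 7.84 CPM in the prefrontal cortex. Its log2 fold changes were -0.01 (SE 0.29), -0.13 (SE 0.29) and -0.07 (SE 0.30), and the sign of the cerebellar value turned under several settings.

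**Figure D3:**
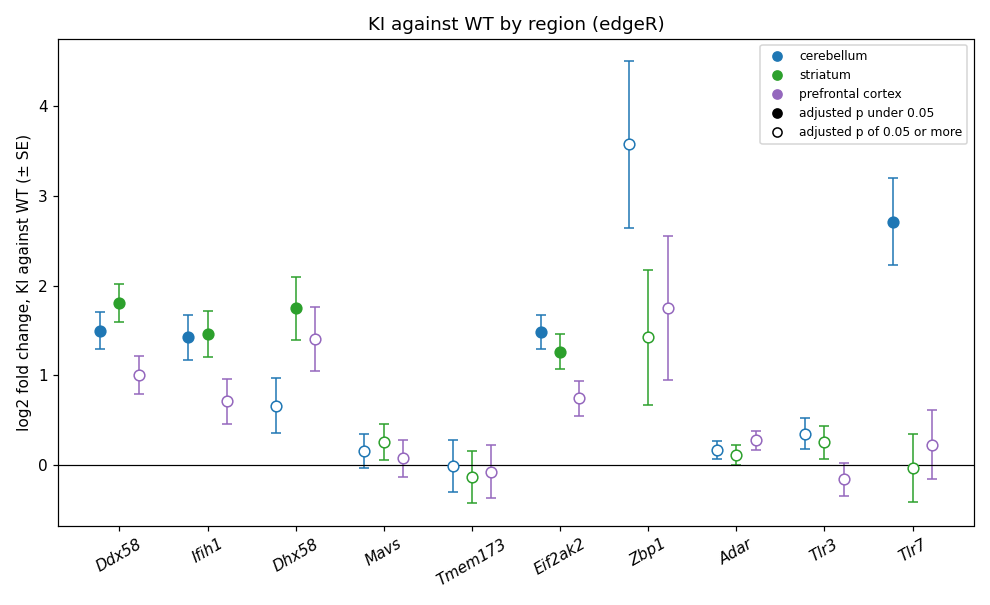
Log2 fold change of KI against WT for each gene (vertical axis, bars ± SE derived from the edgeR test), in the cerebellum (blue), striatum (green) and prefrontal cortex (purple). Filled points passed an adjusted p of 0.05: 4 blue, 4 green and 0 purple, while the bars of *Tmem173* cross 0 in all 3 regions.

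Counting members in which every KI library exceeded every WT library gave 6 in the cerebellum (*Ddx58*, *Ifih1*, *Dhx58*, *Eif2ak2*, *Zbp1* and *Tlr7*), 4 in the striatum (*Ddx58*, *Ifih1*, *Dhx58* and *Eif2ak2*) and 5 in the prefrontal cortex (*Ddx58*, *Dhx58*, *Eif2ak2*, *Zbp1* and *Adar*). Over all genes tested the same pattern held for 5.82%, 5.65% and 4.38%. The two-sided exact permutation test on log2 CPM gave p = 0.0571 for each of the 6 in the cerebellum and p = 0.1 for each in the other regions, which are the smallest values these group sizes allow, so this test cannot reach 0.05 here.

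Averaged over the 3 regions in 1 contrast, 5 members were called higher and none lower, against 0.837% of all genes called higher. *Ddx58* rose by a log2 fold change of 1.43 (SE 0.12, adjusted p = 1.84e-06), *Eif2ak2* by 1.16 (SE 0.11, adjusted p = 6.51e-06), *Ifih1* by 1.20 (SE 0.15, adjusted p = 1.10e-04) and *Dhx58* by 1.27 (SE 0.20, adjusted p = 0.00160). *Zbp1* passed at 2.25 (SE 0.48, adjusted p = 0.0244), a call that was lost with the replicate number as a block across regions (adjusted p = 0.0593) and without any 1 of 8 libraries (adjusted p up to 0.0654): the second or the third WT library of the cerebellum, the second WT, the third WT or the third KI library of the striatum, or the second WT, the second KI or the third KI library of the prefrontal cortex. *Tlr7* at 0.97 (SE 0.24, adjusted p = 0.0639) and *Adar* at 0.18 (SE 0.06, adjusted p = 0.196) did not pass with edgeR, and *Tlr7* passed with DESeq2 (0.0294) and without the first WT library of the prefrontal cortex (0.0403) or the second KI library of the striatum (0.0375). The labels name 3 to 4 mice per genotype and do not tie libraries of different regions to animals. If that number covers all 3 regions, the regions must share mice. If it is a number per region, they may share them. Where they do, the p-values of this average may be too small. Striatum and prefrontal cortex libraries of the same genotype and number matched in sex, and the average was not fitted with them as pairs.

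Whether the KI effect differed between regions was tested as the difference of the log2 fold changes. Libraries of different regions were treated in this fit as coming from separate mice, although they may share animals. With edgeR no member passed for any of the 3 pairs of regions, and DESeq2 called none either. Over all genes the share called was 0.0119% for the cerebellum against the striatum, 0.0178% for the cerebellum against the prefrontal cortex and 0% for the striatum against the prefrontal cortex. The number of members with an unadjusted p under 0.05 was 2, 2 and 1, against 1126, 1031 and 743 of all 16841 genes. *Tlr7* had the largest such difference, 2.75 higher in the cerebellum than in the striatum (SE 0.62, unadjusted p = 3.97e-04, adjusted p = 0.240) and 2.49 higher than in the prefrontal cortex (SE 0.63, unadjusted p = 9.97e-04, adjusted p = 0.371), 2 values that share the cerebellum libraries. The effect on *Eif2ak2* was 0.74 higher in the cerebellum than in the prefrontal cortex (SE 0.27, adjusted p = 0.631). That on *Ddx58* was 0.80 higher in the striatum than in the prefrontal cortex (SE 0.30, adjusted p = 1.00), and that on *Dhx58* in the cerebellum minus the striatum was -1.08 (SE 0.46, adjusted p = 0.668). The lower values in the prefrontal cortex were therefore not distinguished from those of the other regions at this size of study.

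The WT libraries show where each gene is expressed without the knock-in allele. Per kilobase of merged exons, the WT cerebellum had *Adar* at 7.38 ± 1.14, *Mavs* at 4.67 ± 0.83, *Tlr3* at 1.96 ± 0.19, *Dhx58* at 1.52 ± 0.31, *Tmem173* at 1.31 ± 0.72, *Eif2ak2* at 1.06 ± 0.20, *Ddx58* at 0.612 ± 0.11, *Ifih1* at 0.428 ± 0.057, *Tlr7* at 0.053 ± 0.024 and *Zbp1* at 0.018 ± 0.032 CPM per kb (SD, n = 3). The WT values of *Tmem173* spread over those of *Tlr3*, *Dhx58* and *Eif2ak2*, so that its place among these 3 is not resolved, and those of *Tlr7* and *Zbp1* overlapped. In the striatum and prefrontal cortex *Adar* (8.19 and 9.59) and *Mavs* (4.58 and 3.65) led again, and *Zbp1* (0.104 and 0.070) was again the lowest. In the KI cerebellum *Eif2ak2* stood at 2.96 ± 0.19 and *Ddx58* at 1.74 ± 0.22 CPM per kb, above *Tmem173* at 1.30 ± 0.19.

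**Figure D4:**
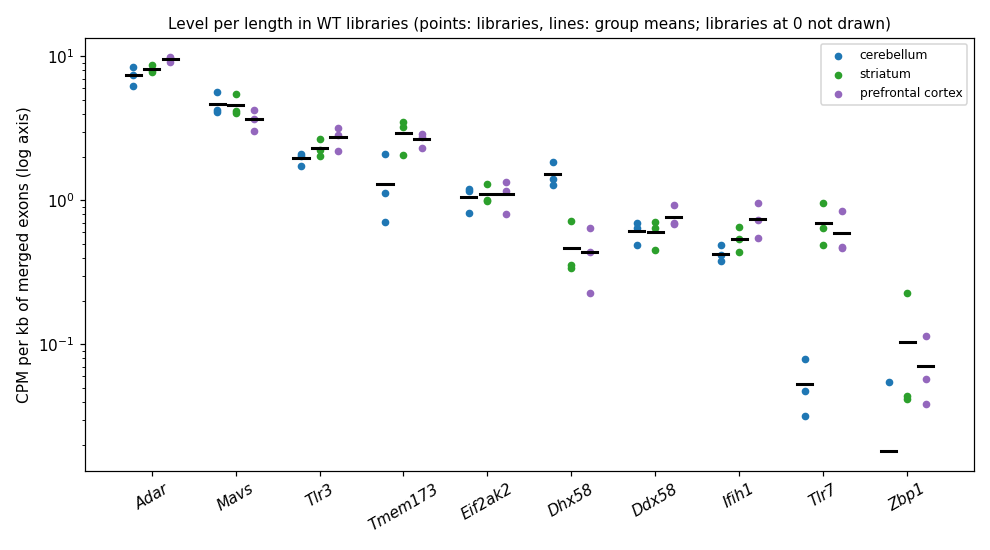
Level of each gene per kilobase of merged exons in the WT libraries (CPM per kb, log axis), coloured by region; points are libraries, black lines are group means, and libraries with 0 counts are not drawn. The means run from 7.38 to 9.59 for *Adar* down to 0.018 to 0.104 for *Zbp1*, and *Tlr7* in the cerebellum (0.053) lies far below its own level in the other regions (0.700 and 0.594).

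Differences between regions in WT mice passed for 3 members between the cerebellum and the striatum, where 56.5% of all genes passed, for 6 between the cerebellum and the prefrontal cortex (52.0% of all genes) and for none between the striatum and the prefrontal cortex (30.5% of all genes), where 0 had an unadjusted p under 0.05 and DESeq2 called none. The former pair of comparisons share the WT cerebellum libraries. Libraries of different regions were again treated as coming from separate mice. *Dhx58* was higher in the cerebellum than in the striatum by a log2 difference of 1.68 (SE 0.36, adjusted p = 7.25e-04, edgeR) and than in the prefrontal cortex by 1.79 (SE 0.36, adjusted p = 4.58e-04). *Tlr7* was lower in the cerebellum, with log2 differences of -3.71 (SE 0.50, adjusted p = 7.22e-06) and -3.48 (SE 0.50, adjusted p = 1.79e-05). *Tmem173* was lower there as well, at -1.16 (SE 0.31, adjusted p = 0.00381) and -1.02 (SE 0.31, adjusted p = 0.00987). *Ifih1* (-0.79), *Adar* (-0.38) and *Tlr3* (-0.50) were lower in the cerebellum than in the prefrontal cortex alone of the pair, at adjusted p of 0.0173, 0.00775 and 0.0308. Each of these 3 calls rested on single libraries: that of *Ifih1* was lost without the first WT library of the cerebellum (0.0636) or the second of the prefrontal cortex (0.102), that of *Adar* without the third of the cerebellum (0.0536), and that of *Tlr3* without the first or the second of the cerebellum or the second or the third of the prefrontal cortex (0.0575 to 0.129). *Zbp1*, which was not called, passed between the cerebellum and the striatum without the first WT library of the cerebellum (0.0169) or the second of the striatum (0.0497).

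The other genes of the pathway were counted by role. Of 15 further sensors, 12 were tested: *Ddx60*, a helicase related to RIG-I signalling, rose in the cerebellum from 0.930 ± 0.27 to 5.54 ± 1.59 CPM (log2 fold change 2.55, SE 0.48, adjusted p = 0.0121) and in the striatum from 1.18 ± 0.54 to 6.90 ± 2.69 CPM (2.53, SE 0.49, adjusted p = 0.0209). *Ifi204*, a DNA-binding member of the interferon-inducible p200 family, rose in the striatum from 0.224 ± 0.14 to 2.34 ± 0.51 CPM (adjusted p = 0.0209). The abundant helicases *Ddx1* (269 and 285 CPM in the WT and KI cerebellum) and *Dhx36* (98.9 and 104.5 CPM) had log2 fold changes of 0.08 each and did not pass. Of the 12, edgeR called none in the prefrontal cortex, with 4 at an unadjusted p under 0.05 and 1 called by DESeq2. DESeq2 called 3 of the 12 in the cerebellum and 2 in the striatum.

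Of 24 adaptors, kinases and transcription factors downstream of the sensors, 23 were tested. DESeq2 called 2, 1 and 1 of them in the cerebellum, striatum and prefrontal cortex. With edgeR 1 was called in each region, the same gene each time. *Irf7*, the factor that amplifies interferon transcription, rose from 2.70 ± 1.47 to 24.4 ± 5.29 CPM in the cerebellum (log2 fold change 3.16, SE 0.36, adjusted p = 1.73e-04). It rose from 3.76 ± 1.78 to 32.5 ± 6.75 CPM in the striatum (3.10, SE 0.37, adjusted p = 3.71e-04) and from 4.39 ± 1.40 to 21.0 ± 5.97 CPM in the prefrontal cortex (2.25, SE 0.36, adjusted p = 0.0158). The prefrontal call depended on the shared fit, since with the prefrontal cortex fitted alone edgeR called 0 of all genes. The median of the 23 was -0.02, 0.14 and 0.02 on the log2 scale. Among 13 regulators of the RIG-I-like receptors, *Trim25*, the ubiquitin ligase of RIG-I, rose in the cerebellum from 3.44 ± 0.56 to 9.26 ± 1.49 CPM (log2 fold change 1.43, SE 0.23, adjusted p = 0.00394). None of the 13 was called by edgeR in the striatum or the prefrontal cortex (4 and 2 at an unadjusted p under 0.05, 1 called by DESeq2 in each).

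None of 9 effectors of PKR and ZBP1 was called by edgeR in any region, with 1 at an unadjusted p under 0.05 in each and none called by DESeq2. *Eif2s1*, the PKR substrate, was at 69.6 ± 7.00 CPM in the WT and 72.5 ± 3.79 CPM in the KI cerebellum, and *Atf4*, a transcription factor of the same stress response, at 87.4 ± 6.57 and 88.3 ± 6.90 CPM. Gene counts do not show phosphorylation or translation, so the activity of PKR was not tested. None of the 8 paralogs tested of 10 was called by edgeR either (2, 0 and 1 at an unadjusted p under 0.05), although DESeq2 called 1 in the cerebellum. *Eif2ak1*, a kinase of the PKR family that responds to haem, had a log2 fold change of 0.04 (SE 0.07) in the cerebellum, and *Adarb1*, the second editing deaminase, of -0.07 (SE 0.11). Of 11 nucleases and RNA clearance genes, 10 were tested, and *Dnase2a*, a lysosomal DNase, fell in the cerebellum from 16.1 ± 0.39 to 8.80 ± 1.28 CPM (log2 fold change -0.87, SE 0.18, adjusted p = 0.0239). In the striatum and the prefrontal cortex none of the 10 was called by edgeR or DESeq2 or had an unadjusted p under 0.05.

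Interferon transcripts themselves were at or near 0. Of 20 interferon genes of types I, II and III, 19 had 0 counts in all 19 libraries and *Ifnk* had 8 counts in all, at most 3 in a library. In 1 library, 0 counts leave room for an expected count of up to 3 at its depth, so a low level in a single library is not excluded. The 19 libraries together bound the mean level lower than this. Both bounds cover counting error only, and not reads left uncounted because they match several related genes. *Bst2*, an interferon-inducible gene that also marks plasmacytoid dendritic cells, was the one called gene of the 10 lymphoid and dendritic markers, of which 2 were tested. It rose from 2.27 ± 0.98 to 12.6 ± 6.84 CPM in the cerebellum (adjusted p = 0.0165) and from 7.66 ± 3.71 to 35.8 ± 18.6 CPM in the striatum (adjusted p = 0.0325).

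Over the 19 libraries, with each library's log2 CPM taken relative to the mean of its region, *Ddx58*, *Ifih1* and *Eif2ak2* varied together (Pearson's r of 0.92 to 0.96 between them), and *Zbp1* and *Dhx58* followed them at r of 0.76 to 0.88. *Tlr7* had r of 0.48 with *Ddx58* and 0.57 with *Eif2ak2*, *Adar* had r of 0.53 with *Ddx58*, and *Tmem173* had r of 0.13 with it. These are descriptions without a test, since the points share the contrast of genotypes, and some may share animals. By the same measure the genes most like *Ddx58* were *Oas1a*, *Ifit1* and *Usp18* (r = 0.98 each), those most like *Eif2ak2* were *Oasl2*, *Usp18* and *Ifit1* (0.97 to 0.98), those most like *Ifih1* were *Igtp*, *Ifitm3* and *Xaf1* (0.95 each) and those most like *Zbp1* were *Lgals9*, *Gbp2* and *Trim30a* (0.90 to 0.92). *Dhx58* was most like *1700123O20Rik*, *Rnf213* and *Gbp9* (0.87 to 0.91). *Tlr7* was most like *C1qc*, *C1qa* and *Slc52a3* (0.87 to 0.89). The nearest genes were *Arrdc2*, *Rin2* and *Emilin2* for *Mavs* (0.89 to 0.91), *Fez2*, *Ppp1r14b* and *Cmtr1* for *Tmem173* (0.77 to 0.81), *Kif1a*, *Spock2* and *Grb10* for *Adar* (0.79 to 0.82) and *Ttc39aos1*, *Hadh* and *Csf1* for *Tlr3* (0.80 to 0.81).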

How the data were processed

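RNA was extracted with Trizol, and per the labels libraries were made with the SMART-Seq v4 and Nextera XT kits. The authors deposited whole-number counts of reads per Ensembl gene, with no normalization, and a second table, deposited as a signal, that holds these counts divided by size factors. The submitters' processing notes list bcl2fastq 2.17.1.14, STAR 2.5.2b, HTSeq, DESeq2 1.10.1 and GRCm38.p3, and the paper names Cufflinks and Cuffdiff; the annotation and the strand setting are not given in the sources used here. GENCODE M21 named 40254 of 41128 identifiers.

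Groups, regions and replicate numbers came from the sample labels. The counts went into edgeR 4.0.16 under R 4.3.3: filterByExpr over the 6 groups kept 16841 genes, libraries were scaled by TMM, and 1 quasi-likelihood fit of 19 libraries (13 residual degrees of freedom, common biological coefficient of variation 0.191) gave all contrasts, with Benjamini-Hochberg adjustment over all genes tested and a threshold of 0.05. The script was tested on simulated data. The quasi-likelihood test gives no SE, so each SE is the absolute log2 fold change divided by the square root of the test's F statistic. Log2 CPM used a prior count of 2. Single values were compared by two-sided exact permutation tests in scipy 1.17.1. Intervals of count ratios are exact 95% binomial intervals of the split of the summed counts; as reads carry no molecular identifier, these cover counting error only. Alternatives were DESeq2 1.42.0, limma 3.58.1 on log2 of the signal plus 1, other filters, scaling, blocks, a covariate for sex and leaving out each library.

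The members and the other gene lists were chosen with earlier results of these data known. Named genes were the members, genes of the other lists that were called or were among the 2 most abundant of their list (at most 5 a list and region), and the 3 genes outside the members whose log2 CPM, relative to the mean of the region, correlated best with each member.

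Replicate numbers did not pair KI with WT libraries: over all tested genes, the deviations from the group means of same-numbered KI and WT libraries of a region correlated at r of -0.245 to 0.172 (9 pairs). Striatum and prefrontal cortex libraries of the same genotype and number correlated at 0.233 to 0.368 (6 pairs) and those of different number at -0.253 to -0.076 (12 pairs). The 6 pairs also matched in sex, and they were fitted as pairs only in the contrasts of the striatum against the prefrontal cortex. Cerebellum libraries did not pair with either (-0.104 to 0.163, 12 pairs). Replicate libraries differed by more than sampling noise (chi-square per degree of freedom of 4.84 to 28.8 over 21 pairs), and nothing in the labels says more of their origin than separate mice. A second motif that was searched in the promoter windows and some other items are not reported here.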

Additional observations from a re-analysis of the deposited data

How the results depend on the processing

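With DESeq2 the counts of genes called were 336, 214 and 52 in the cerebellum, striatum and prefrontal cortex (140, 98 and 18 with edgeR), 440 averaged over regions (228), and 40, 33 and 11 for the differences of the KI effect between regions (2, 3 and 0); members called were 5, 4 and 2. With each region fitted alone the striatum had 46 genes and 2 members called and the prefrontal cortex 0 genes. With the replicate block within each region the prefrontal cortex had 9 genes, and the KI effect differed for 8 genes between cerebellum and striatum and for 1 between cerebellum and prefrontal cortex. The covariate for sex left 1 for the former pair. With striatum and prefrontal cortex libraries paired by genotype and number, a replicate block chosen after seeing the data, the KI effect differed between them for 0 genes, and no member was called there or between the WT libraries of the 2 regions.

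Leaving out 1 library at a time gave 73 to 155 genes in the cerebellum, 36 to 121 in the striatum, 5 to 19 in the prefrontal cortex and 165 to 255 averaged, 1 to 6, 1 to 5 and 0 to 1 for the differences of the KI effect, and 8470 to 9674, 7804 to 8841 and 3803 to 5178 for the WT regions. Members called were then 3 to 4, 2 to 4 and 0 in the 3 regions, 4 to 6 averaged, and 4 to 6 between the WT cerebellum and prefrontal cortex.

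Among members, blocking on the replicate number within regions ended the calls of *Tlr7* in the cerebellum (adjusted p = 0.0643) and *Dhx58* in the striatum (0.186), and as a block across regions those of *Dhx58* in the striatum (0.0767) and *Zbp1* averaged (0.0593); no other member's call changed under a block. Without a filter beyond 1 count, *Tlr3* no longer differed between the WT cerebellum and prefrontal cortex (0.0564). Signs turned only for values near 0: *Tmem173* in the cerebellum was 0.19 and 0.090 under the 2 blocks and 0.11 with limma (-0.32 to 0.52 with 1 library left out), and *Tlr7* in the striatum was 0.058 with the sex covariate (-0.54 to 0.27). With 1 library left out, *Tmem173* ran from -0.33 to 0.023 in the striatum, from -0.17 to 0.094 in the prefrontal cortex and from -0.18 to 0.10 averaged, and *Mavs* in the prefrontal cortex from -0.062 to 0.20. The cause was not tested. *Zbp1* and *Tlr7* could not be fitted with at least 10 counts required in every library. *Ddx58* and *Eif2ak2* in the cerebellum and striatum passed under all 9 alternatives and all libraries left out.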
